A study of Mus musculus with 37 samples.

Results

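The comparison concerns the first day of the time course in fetal lung of A/J mice, an inbred strain, from E15.5 to E16.5 (embryonic day counted from video-monitored matings). It contrasted 6 of the 37 arrays of the series, 3 of A/J lung at E15.5 and 3 of A/J lung at E16.5, chosen by the strain and time in the labels. The question was which mRNAs moved first as the lung entered the canalicular stage. The mice were untreated and carried no engineered allele, each replicate was 1 litter in which the right lungs of 3 male fetuses were pooled, and total RNA of the homogenised lung was hybridised to Affymetrix Mouse Gene 1.0 ST arrays. Arrays of C57BL/6J (B6) lung at E15.5, E16.5 and E17.5, and of A/J lung at E17.5 and E20.5, 3 litters each, served for reference. Arrays of both strains at E15.5, E17.5, E18.5 and postnatal day 0 helped to choose the genes that differ between the strains. The fit also took in A/J lung at E19.5. By the study's account A/J mice are born later than B6 mice, so that the same embryonic day falls farther from birth in A/J. Values are log2 signals, and a difference of 1 is a doubling. The array reads 21789 probe sets that carry exactly 1 gene symbol, for 19938 genes. A probe set was called at an adjusted p under 0.05 in limma across all of them. The p-values measure the spread between litters, estimated over 36 replicates of all 12 strain and time groups and not from the 6 arrays alone. Because whole lung was measured, more cells of a type and more RNA per cell cannot be told apart.

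In the canalicular stage the branched epithelial tubes of the fetal lung widen, their distal cells begin to differentiate toward type I cells, which form the thin gas exchange surface, and type II cells, which make surfactant, and capillaries come to lie against the epithelium. Before it, in the pseudoglandular stage, dividing progenitors at the distal tips drive branching. In the conducting airways, club cells and ciliated cells differentiate over the same period, and ciliated cells build many centrioles before they grow motile cilia. Glucocorticoid hormone, signalling from the mesenchyme and innate defence proteins of the epithelium are all known to take part in maturation before birth.

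Of the 6 arrays, 2 stood apart from the others of their group. In A/J E15.5 replicate 1 the 28 genes of a heart list averaged 7.75, against 6.54 and 6.63 in replicates 2 and 3 and 6.57 to 6.78 at E16.5, and 23 of the 28 were highest in that replicate. The 25 genes of a liver list averaged 6.38 there, against 5.46 and 5.57 in the other E15.5 arrays and 5.43 to 5.52 at E16.5, and 23 of the 25 were highest in it. Of all 21789 probe sets, 8063 were highest in replicate 1, so the lists lay far above that share. Nppa, which encodes the atrial natriuretic peptide of the heart, read 10.82, 5.6 and 6.0 at E15.5, and Alb, the liver's serum albumin, read 9.89, 5.65 and 6.02. Lists for skeletal muscle (6.07, 5.76 and 5.99), cartilage (6.85, 6.69 and 6.85) and brown fat (5.47, 5.34 and 5.43) spanned less between the 3 E15.5 arrays.

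A/J E16.5 replicate 1 lay toward B6 at genes whose level differs between the strains. Over 50 probe sets on 15 chromosomes that separated A/J from B6 at the other times shared by both strains, with E16.5 left out of the choice, each array was placed on a linear scale from 0, the A/J mean, to 1, the B6 mean. The median position of E16.5 replicate 1 was 0.43 (quartiles 0.19 to 0.66), against -0.01 and -0.02 in E16.5 replicates 2 and 3. The 3 E15.5 arrays lay between -0.01 and 0.05, but they had helped to choose the probe sets. At the 23 probe sets higher in B6 its median was 0.48 and at the 27 higher in A/J it was 0.36. The 7 probe sets on chromosome 7 gave a median that rounds to 0.00, and the 43 on other chromosomes gave 0.48. On the log2 scale the median was 0.38, and a smaller set of 26 probe sets, for which E15.5 was also left out of the choice, gave 0.18 on the log2 scale and 0.28 on the linear one. Of the 50 probe sets, 5 were called between A/J E15.5 and E16.5, where 4.69% of all probe sets were called higher and 1.97% lower. The plot by chromosome shows the same values gene by gene.

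**Figure D1:**
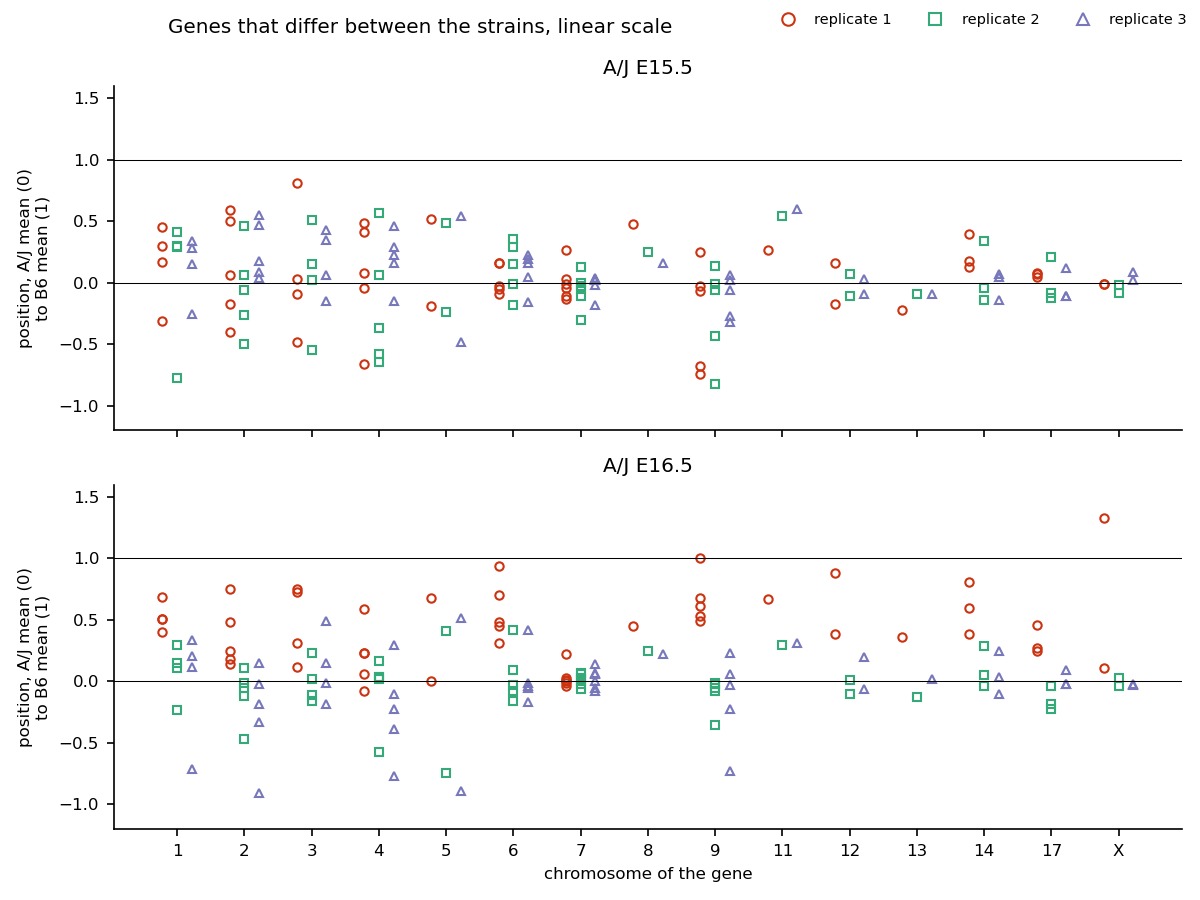
Position of each A/J array at genes that differ between the strains, 1 symbol per probe set, with replicates 1, 2 and 3 as circles, squares and triangles. The y axis runs on the linear scale from the A/J mean (0) to the B6 mean (1), the x axis is the chromosome of the gene, the upper panel shows E15.5 and the lower panel E16.5, and Hbb-y was left out. At E16.5 most circles of replicate 1 outside chromosome 7 lie above 0. On chromosome 7 they sit near 0 with the symbols of replicates 2 and 3, apart from Itpripl2 (0.22 against 0.07 and 0.06).

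Both arrays were often the extreme ones of their group at called probe sets. At the 339 probe sets that rose at least 1.5-fold, E16.5 replicate 1 was the highest E16.5 array in 277 and E15.5 replicate 1 was the lowest E15.5 array in 236. At the 44 that fell at least 1.5-fold, E15.5 replicate 1 was the highest E15.5 array in 33, beside 8063 of all 21789 probe sets. Shares over all probe sets were not taken for the other counts. These probe sets were called with both arrays included, so an extreme value helped a probe set to pass. Counts for this day that lead a paragraph are therefore given also without both arrays, which leaves 2 litters in each group. What set either array apart was not tested.

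The sequences shown here belong to genes of the ciliated cell, several of which rose on this day and fell later in gestation. The mir-449 locus on chromosome 13 lies in the gene Cdc20b, beside Ccno and Mcidas. The mature 5p strands that RefSeq gives for 2 of its microRNAs share bases 2 to 8, the seed in capitals, with miR-34b, which lies on chromosome 9. The array reads the locus of each microRNA and not the mature strand. In build GRCm38.p6 the strands lie at chr13:113036008-113036028 (plus strand), chr13:113037549-113037570 (plus strand) and chr9:51103610-51103632 (minus strand).
mmu-miR-449c-5p: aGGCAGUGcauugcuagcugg
mmu-miR-449a-5p: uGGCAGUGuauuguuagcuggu
mmu-miR-34b-5p: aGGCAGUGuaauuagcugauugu

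Promoters of several ciliary genes hold letters of the X-box type, the kind of site that RFX factors, regulators of cilia genes, are known to bind. In the RefSeq window of 250 bases before to 50 after each gene's start, GTNNCCNNGGNAAC on either strand was found in 12 of 227 genes that rose at least 1.5-fold and had a promoter in the table (5.29%), against 269 of 15614 genes (1.72%) and 425 of 32851 promoters in all (1.29%). It was 1 of 9 forms of letters searched, chosen after values of the genes had been seen, and a match describes the letters only. Some of the forms overlap. Excerpts of 4 such promoters are given 5′ to 3′ on the strand of the gene, in build GRCm38.p6, with the matched bases in capitals. They lie at chr9:15627906-15627947 (minus strand, match 87 to 74 bases before the start), chr4:34730207-34730243 (minus strand, 23 to 10 before), chr13:112987569-112987610 (plus strand, 219 to 206 before) and chr9:22002641-22002682 (minus strand, 34 to 21 before).
Deup1: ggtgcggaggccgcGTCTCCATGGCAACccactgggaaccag
Cfap206: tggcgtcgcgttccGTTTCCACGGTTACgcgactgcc
Ccno: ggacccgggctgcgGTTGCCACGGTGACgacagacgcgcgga
Ccdc151: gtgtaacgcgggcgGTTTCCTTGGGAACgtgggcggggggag
The shorter core GTTGCC, again on either strand, was in 46 of the 227 risers (20.3%) and in 14% of all genes. It was in 10 of the 18 listed ciliated cell genes that had a promoter in the table. Of these, Dynlrb2, Tekt4 and Spag6l rose on the first day, and Hydin, Mcidas, Rfx2, Rfx3, Sntn, Spef2 and Tekt1 were not called.

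From E15.5 to E16.5, 1022 probe sets rose and 429 fell, which was 4.69% and 1.97% of those tested. Counts of called genes in each list below stand beside these shares, and no list was tested as a set. Rises were also the larger changes: 339 probe sets (1.56%), for 302 genes, rose at least 1.5-fold and 44 (0.202%), for 42 genes, fell as much. The replicates of the 2 ages did not overlap at 24.8% of all probe sets, at 995 of the 1022 that rose and at 404 of the 429 that fell. The median difference over all probe sets was -0.03. Without both arrays named above, 334 of the 21789 probe sets rose and 40 fell, and list counts without both arrays stand beside these. Among the 334 and 40, 332 and 39 were earlier calls. All earlier calls, 1022 and 429, kept their direction. Without E15.5 replicate 1 alone the counts were 599 and 100, and without E16.5 replicate 1 alone 592 and 162.

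**Figure D2:**
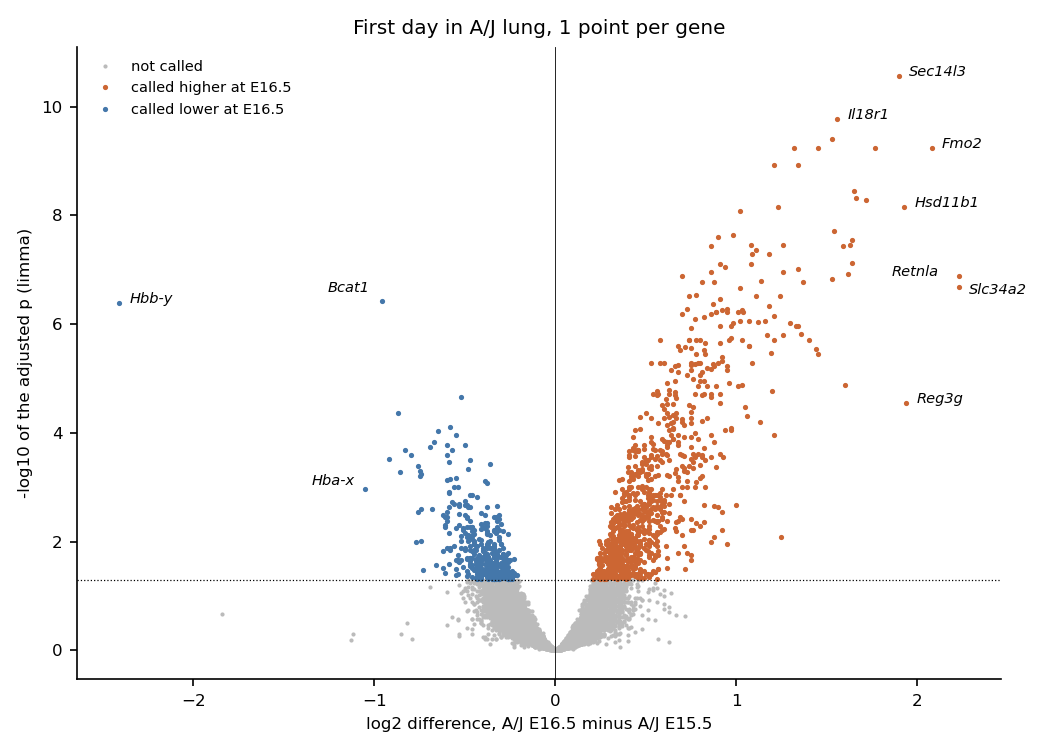
Log2 difference between A/J E16.5 and A/J E15.5 (x axis) against -log10 of the adjusted p from limma (y axis), 1 point per gene, with genes called higher in orange, genes called lower in blue and the threshold as a dotted line. The right side reaches farther than the left: Slc34a2 and Retnla rose by 2.23, and on the left only Hbb-y (-2.41) and Hba-x (-1.05) were called beyond -1.

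Genes of the surfactant system were among the largest rises. Of 23 measured genes for surfactant and lamellar bodies, the organelles that store it, 13 rose and 1 fell, with a median of 0.54, and without both arrays 12 rose and 1 fell. Of 17 type II cell markers 11 rose and none fell (median 0.74, and 10 without both arrays). Slc34a2, the phosphate transporter of type II cells, read 7.07, 7.97 and 6.76 at E15.5 and 10.21, 9.45 and 8.84 at E16.5. Each E16.5 litter lay above each E15.5 litter, and the rise was 2.23 (SE 0.25, adjusted p = 2.1e-07), or 1.78 without both arrays (adjusted p = 9.5e-05). Sftpb, which encodes the hydrophobic surfactant protein B needed to spread the film, read 8.0, 8.86 and 8.83 and then 10.40, 10.13 and 9.75. Its groups did not overlap and it rose by 1.53 (SE 0.17, adjusted p = 1.5e-07). Genes for the handling of that protein moved with it: Napsa and Ctsh, proteases that process its precursor, rose by 1.77 and 1.37, and Lamp3, a lamellar body membrane protein, by 1.64. Abca3, the lipid pump of the lamellar body, rose by 1.02 (SE 0.09).

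Sftpc, specific to distal lung epithelium, was already near the top of the scale at E15.5, at 12.36, 12.88 and 12.99, and read 13.56, 13.47 and 13.42 at E16.5. The groups did not overlap, and the rise was 0.74 (SE 0.09, adjusted p = 2e-06). Not all of the system moved. Sftpd, a collectin of the airspace, read 5.86, 5.90 and 6.03 and then 5.72, 5.73 and 5.77, a difference of -0.19 (adjusted p = 0.56). Mfsd2a, a lysophospholipid transporter, was the 1 member that fell, by 0.47 (adjusted p = 0.0053), and its adjusted p was 0.054 without E16.5 replicate 1. Lpcat1 and Pcyt1a, which work in the synthesis of phosphatidylcholine, rose by 0.54 and 0.31 (adjusted p = 0.059 for Pcyt1a without both arrays), while Fasn and Scd1 of fatty acid synthesis stood at -0.13 and -0.12 and were not called.

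Type I cell markers rose beside those of type II cells. Of 22 measured, 12 rose and 1 fell (median 0.46), and 10 rose and none fell without both arrays. Sec14l3, a lipid-binding protein of the Sec14 family, had the smallest adjusted p of all genes. It read 6.27, 6.30 and 6.52 at E15.5 and 8.53, 8.28 and 7.99 at E16.5, with no overlap, and rose by 1.90 (SE 0.13, adjusted p = 2.7e-11). Hopx, a homeodomain protein without DNA binding of its own, read 6.88, 6.98 and 7.23 and then 8.65, 8.54 and 8.26, and rose by 1.45 (SE 0.11, adjusted p = 5.8e-10). Clic5, Ager, Lmo7 and Emp2 rose by 1.34, 1.14, 1.08 and 0.94. Aqp5, the water channel of type I cells, went the other way: it read 6.96, 7.01 and 7.14 and then 6.67, 6.48 and 6.58. These groups did not overlap either, and it fell by 0.46 (SE 0.13, adjusted p = 0.027), a call that was lost without E15.5 replicate 1 (0.06), without E16.5 replicate 1 (0.051) or without both (0.098). Pdpn, which encodes the surface protein podoplanin, differed by 0.11 and was not called (adjusted p = 0.63).

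**Figure D3:**
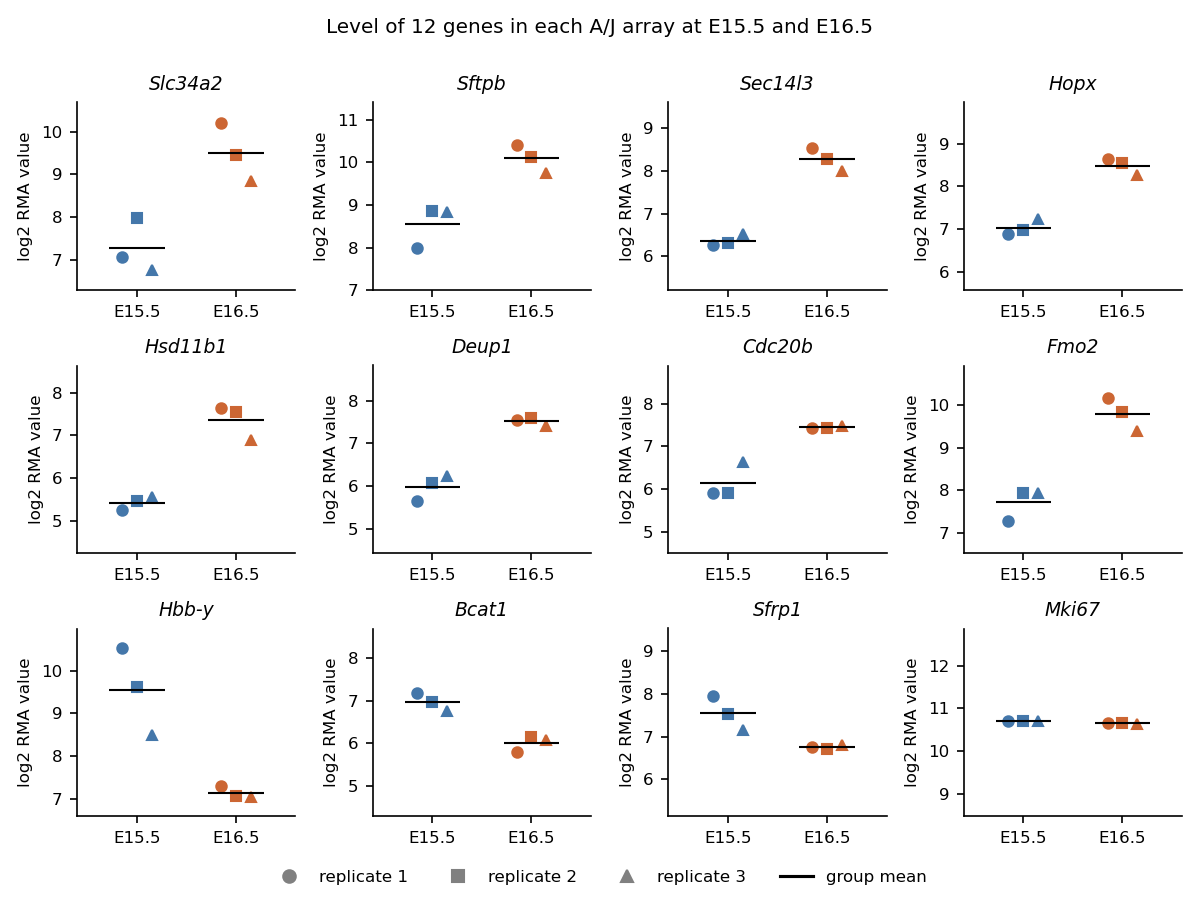
Log2 values of 12 genes in each A/J array at E15.5 (blue) and E16.5 (orange), with circles, squares and triangles for replicates 1, 2 and 3 and a line at each group mean. Every panel spans the same number of log2 units, so distances can be compared between panels. The groups are far apart in the top row, Hbb-y, Bcat1 and Sfrp1 fall, and Mki67 stays within 10.63 to 10.71 in all 6 arrays.

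Genes of the ciliated cell made up another group. Of 22 markers, 12 rose and none fell (median 0.46), and 7 rose without both arrays. Deup1, which builds the deuterosome, the body on which ciliated cells multiply centrioles, read 5.66, 6.07 and 6.23 at E15.5 and 7.56, 7.59 and 7.40 at E16.5. The groups did not overlap and the rise was 1.53 (SE 0.12, adjusted p = 4e-10). Cdc20b, the host gene of the mir-449 locus, read 5.90, 5.90 and 6.63 and then 7.43, 7.42 and 7.49, and rose by 1.30 (SE 0.16, adjusted p = 9.6e-07). Its neighbour Ccno, a cyclin needed for deuterosomes, read 6.45, 6.40 and 6.56 and then 7.14, 7.21 and 7.29, again with no overlap, and rose by 0.74 (SE 0.09). Mir449c, whose mature strand is printed above, rose by 0.88 (SE 0.18, adjusted p = 0.0022), but its lowest E16.5 array (6.28) lay below its highest E15.5 array (6.32), and its adjusted p without E15.5 replicate 1 was 0.051. Mir449a (0.28), Mcidas (0.28), Mir34b (-0.12) and Mir34c (0.09) were not called.

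Foxj1, the transcription factor of motile cilia, read 6.24, 7.03 and 7.15 at E15.5 and 7.48, 7.40 and 7.45 at E16.5. It rose by 0.64 (SE 0.13, adjusted p = 0.0014), and by 0.34 without both arrays (adjusted p = 0.084). Myb, known to act early in the making of ciliated cells, rose by 0.77 and kept its call without both arrays (0.62, adjusted p = 0.0062). Parts of the axoneme rose too: Dynlrb2, a dynein light chain, read 5.40, 5.44 and 5.61 and then 7.52, 7.01 and 6.91 and rose by 1.66 (SE 0.15), Lrrc23 of the radial spoke rose by 1.72, Cfap206, whose promoter is shown above, by 1.54, and Ccdc151, needed to dock dynein arms, by 0.63. Counted by symbol, which was done after values had been seen, 12 of 31 Cfap genes, 7 of 18 axonemal dynein genes and 3 of 5 radial spoke genes rose, and none of the 14 Ift genes, for transport along any cilium, was called in either direction. Without both arrays 5 Cfap, 3 dynein and 2 radial spoke genes rose.

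Of 14 club cell markers 7 rose and none fell (median 0.40), and 7 rose without both arrays (median 0.3). Scgb3a2, a small secreted protein of the airway, rose by 1.34 and Hp, haptoglobin, by 1.44, each with its highest value in E16.5 replicate 1 (9.61 against 8.69 and 8.57 for Scgb3a2, and 8.51 against 7.51 and 7.20 for Hp). Cyp2f2, a cytochrome of club cells, rose by 0.79. Scgb1a1, the classical club cell product, scattered widely between litters, at 6.84, 7.89 and 4.60 and then 6.95, 5.81 and 5.89. These groups overlapped fully and it was not called (-0.23, adjusted p = 0.81).

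Among 18 glucocorticoid response genes, 10 rose and 1 fell (median 0.46), and 6 rose and none fell without both arrays. Hsd11b1, the enzyme that regenerates active glucocorticoid within a tissue, read 5.24, 5.47 and 5.55 at E15.5 and 7.63, 7.55 and 6.88 at E16.5, with no overlap, and rose by 1.93 (SE 0.18, adjusted p = 6.9e-09). Hsd11b2, which inactivates the hormone, read 6.90, 6.69 and 6.55 and then 6.16, 6.27 and 6.2. It fell by 0.50 (SE 0.13, adjusted p = 0.013), a call lost without E15.5 replicate 1 (0.13), without E16.5 replicate 1 (0.067) or without both (0.32). Zbtb16, a zinc finger protein induced by glucocorticoid, rose by 1.6, Klf9 by 0.76 and Per1 by 0.77 (adjusted p = 0.086 without both arrays), while the receptor Nr3c1 rose by 0.29 (adjusted p = 0.034) and lost its call without either array.

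About as many transport and barrier genes rose as were not called. Of 21 genes for ion and water transport 11 rose and 1, Aqp5, fell (median 0.36, and 6 up without both arrays). Atp1b1, a subunit of the sodium pump, rose by 1.32 (SE 0.11), Scnn1a, part of the sodium channel of epithelia, by 1.21 and the amino acid transporter Slc6a14 by 1.64. Of 29 genes for junctions and epithelial adhesion 14 rose and none fell (median 0.30, and 6 without both arrays), with Krt19 at 0.80, Cldn18 at 0.67 and Cdh1, E-cadherin, at 0.58. Of 29 genes for oxidant defence and xenobiotic metabolism 9 rose and 1 fell, and 7 rose and none fell without both arrays. Fmo2, the main flavin monooxygenase of lung, read 7.28, 7.93 and 7.95 at E15.5 and 10.17, 9.84 and 9.39 at E16.5. With no overlap it rose by 2.08 (SE 0.17, adjusted p = 5.8e-10), and Fmo1 and Ces1d rose by 1.65 and 1.23. Hmox1, heme oxygenase, was the member that fell (-0.61).

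A few secreted defence proteins rose far ahead of the rest of their group. Retnla, a cysteine-rich secreted protein, read 4.95, 5.87 and 5.42 at E15.5 and 8.14, 7.5 and 7.3 at E16.5. The groups did not overlap, and its rise of 2.23 (SE 0.24, adjusted p = 1.3e-07) was, with that of Slc34a2, the largest on the array. Reg3g, an antibacterial lectin, read 4.08, 4.33 and 4.64 and then 7.47, 5.74 and 5.66, and its rise of 1.94 became 1.22 without both arrays (adjusted p = 0.0036). Of the 31 innate defence genes 5 rose and 1 fell, with a median of 0.02, and 4 rose and none fell without both arrays. Sftpa1, a collectin that also binds surfactant, rose by 1.33 and Cxcl15, a chemokine of lung epithelium, by 0.93.

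Of 34 transcription factors of the lung epithelium 12 rose and none fell (median 0.18), and 5 rose without both arrays. Elf5, of the ETS family, rose by 1.09 (SE 0.11), Klf5 by 0.73, Cebpa by 0.64 and Nkx2-1, required for lung identity, by 0.38 (SE 0.08). Foxa1 (0.16), Foxa2 (0.05) and Gata6 (0.09) were not called. All 8 regulators that the study names for E16.5 rose (Hopx, Elf5, Fgf7, Tcf21, Klf5, Fgf1, Cebpa and Epas1), and 7 did without both arrays, but the study chose them on these samples, so they are no independent evidence of their direction. Epas1, a hypoxia-inducible factor, read 8.08, 8.05 and 8.04 and then 8.66, 8.52 and 8.53 (0.51, adjusted p = 0.0035), and was the 1 not called without both arrays (adjusted p = 0.093). Of 10 regulators that the study names as induced from E16.5 and peaking at E17.5, 6 rose and 4 were not called. Of 8 it names for E17.5, 3 rose. These counts of rises were 2 of 10 and 0 of 8 without both arrays. The study took its regulators from an ANOVA by strain and time, which is a different test. Vegfa, the endothelial growth factor in the last of these lists, differed by 0.15 (adjusted p = 0.35).

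In the mesenchyme, 12 of 25 genes of alveolar fibroblasts and lipofibroblasts rose and none fell (median 0.36, and 8 without both arrays). Fgf7, a growth factor for the epithelium, read 6.67, 7.04 and 7.45 at E15.5 and 8.16, 8.10 and 8.18 at E16.5. The groups did not overlap and it rose by 1.09 (SE 0.15, adjusted p = 5.2e-06). Tcf21, a transcription factor of lung mesenchyme, rose by 0.79 and G0s2, an inhibitor of lipolysis, by 0.87. Of 19 genes of elastic fibres 7 rose and none fell (median 0.19, and 4 without both arrays), among them Mfap4 (0.68), Eln, elastin (0.62), and Lox, which cross-links it (0.55, adjusted p = 0.22 without both arrays). Aspn, a small matrix proteoglycan, read 7.42, 7.46 and 7.36 and then 8.80, 8.65 and 8.57, a rise of 1.26 (SE 0.13) between tight groups. Of 26 endothelial genes 8 rose and none fell, with Calcrl (0.80), Emcn (0.46) and Pecam1 (0.44, adjusted p = 0.059 without both arrays) the farthest, and 2 rose without both arrays. Of 19 genes of FGF signalling 6 rose and none fell (4 without both arrays).

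**Figure D4:**
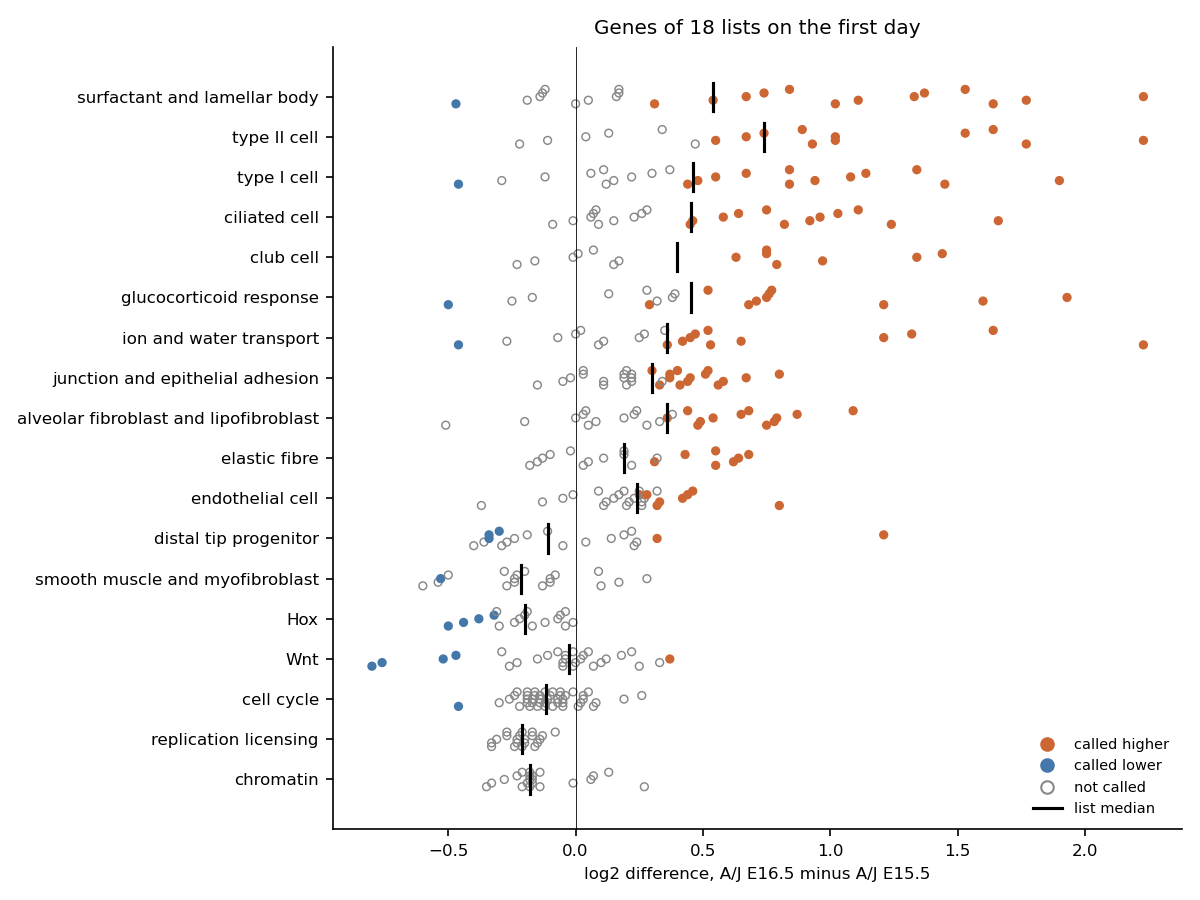
Log2 difference between A/J E16.5 and A/J E15.5 for every measured gene of 18 lists, 1 circle per gene, filled where called (orange higher, blue lower) and open where not, with a bar at the median of each list. Lists of differentiated epithelium and fibroblasts reach to the right. The lists for Hox genes, smooth muscle, cell cycle, replication and chromatin lie mostly to the left, the last 3 with 1 called gene among them.

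The largest fall was that of an embryonic globin. Hbb-y, a beta-like globin made by the primitive red cells of the yolk sac, read 10.52, 9.62 and 8.48 at E15.5 and 7.29, 7.06 and 7.05 at E16.5. With no overlap it fell by 2.41 (SE 0.28, adjusted p = 4.1e-07), and without both arrays by 2.0 (adjusted p = 2.5e-05). Hba-x, the embryonic alpha-like globin, read 8.80, 7.52 and 7.78 and then 6.91, 7.03 and 7.01, and fell by 1.05 (adjusted p = 0.0011), a call lost without both arrays (-0.63, adjusted p = 0.11). Over 16 erythroid and globin genes the mean was 7.42, 7.13 and 7.15 at E15.5 and 6.79, 7.01 and 7.0 at E16.5, and 3 of the 16 fell and none rose. Both globins were highest in E15.5 replicate 1, where heart and liver genes were also high, and the part of that array in the size of the fall was not tested beyond leaving it out.

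Beyond the globins, falls were small. Bcat1, the cytosolic branched-chain aminotransferase, read 7.17, 6.98 and 6.76 and then 5.81, 6.14 and 6.09, with no overlap, and fell by 0.96 (SE 0.11, adjusted p = 3.7e-07). Has2, which makes hyaluronan of the matrix, fell by 0.86, Peg10, an imprinted gene derived from a retrotransposon, by 0.76, and Dcx, Camkv and Ctnna2, known from neurons, by 0.92, 0.87 and 0.83. Of these 5, Has2 and Dcx were not called without both arrays (adjusted p = 0.084 and 0.055). Casq1, a calcium store protein of striated muscle, read 7.76, 6.61 and 6.70 and then 6.14, 6.35 and 6.40. Its groups did not overlap, but its fall of 0.73 (adjusted p = 0.033) was -0.36 without E15.5 replicate 1 (adjusted p = 0.40), the array in which it stood 1.06 above the next. Ptn, a heparin-binding growth factor, fell by 0.77 and lost its call without either array in doubt.

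Falls in signalling pathways were few in number. In the Wnt, Hox and retinoic acid lists their share still lay above the 1.97% over all probe sets. Of 28 Wnt pathway genes 4 fell and 1, the receptor Fzd4, rose (median -0.02). Sfrp1, a secreted Wnt modulator, read 7.96, 7.53 and 7.17 at E15.5 and 6.75, 6.71 and 6.80 at E16.5, and fell by 0.80 (SE 0.14, adjusted p = 2.6e-04) with no overlap. Rspo2, which strengthens Wnt signals, fell by 0.76, Sfrp2 by 0.52 and Lef1, a nuclear partner of beta-catenin, by 0.47, and without both arrays only 1 of these 5 genes was called, Sfrp1 (-0.60, adjusted p = 0.034). Of 17 Hox genes 4 fell and none rose (median -0.20), led by Hoxb5, which read 8.77, 8.69 and 8.48 and then 8.19, 8.03 and 8.22 (-0.50, adjusted p = 1.7e-04) and was the 1 called without both arrays. Of 19 genes of retinoic acid handling 2 fell, Crabp2 (-0.65) and Rarb (-0.35), and 1 rose, Dhrs3 (0.52), and without both arrays Crabp2 was the 1 called. None of 15 hedgehog genes was called, and of 18 smooth muscle genes 1 fell, Myocd (-0.53, adjusted p = 0.057 without both arrays).

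Genes of the distal tip progenitor moved by small amounts on the first day, Cpm apart. Over all probe sets 4.69% rose and 1.97% fell. Of 19, 3 fell (Ccnd2, Igf2bp1 and Lin28b, by 0.30 to 0.34) and 2 rose (Cpm and Fgfr2), with a median of -0.11, and without both arrays only Cpm was called. Cpm encodes a carboxypeptidase of the distal epithelial surface and rose by 1.21. Sox9, the transcription factor that marks the tips, read 8.97, 8.96 and 9.06 and then 8.98, 8.73 and 9.14. These groups overlapped and it was not called (-0.05, adjusted p = 0.87).

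Most genes of cell division lay slightly lower at E16.5, and 1 of them was called. Of 44 cell cycle genes 1 fell, Ccne1, the G1 cyclin (-0.46, adjusted p = 0.02, and 0.33 without both arrays), none rose, and the median was -0.11. None of 20 genes that license and start DNA replication was called, with values from -0.33 to -0.08 and a median of -0.21, and none of 21 chromatin genes (median -0.18). All 20 replication genes lay below 0, where 8989 of all 21789 probe sets lay above it. Their E16.5 arrays all lay below their E15.5 arrays at 13 of the 20, as they did at 16 of the 44 cell cycle genes, 11 of the 21 chromatin genes and 2740 of all 21789 probe sets, and at none of these 3 lists' genes did they all lie above. In B6 15 of the 20 replication genes were called lower on the same day, beside 7.52% of all probe sets. The difference between the strains' changes was called at none of the 20. Mki67, the common marker of dividing cells, read 10.70, 10.70 and 10.71 at E15.5 and 10.66, 10.65 and 10.63 at E16.5, a difference of -0.06 (adjusted p = 0.89). Mcm2, a subunit of the replicative helicase, read 10.16, 10.19 and 10.12 and then 9.93, 9.83 and 9.90, which did not overlap, but the difference of -0.27 was not called (adjusted p = 0.11).

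The second day, from E16.5 to E17.5, changed more: 2777 probe sets (12.7%) rose and 3466 (15.9%) fell. It shares the 3 E16.5 arrays with the first day, so a high or low E16.5 value moves both differences in opposite directions. The difference between the days was tested directly, and 179 probe sets (0.822%) were higher and 325 (1.49%) lower on the second day than on the first. Of the 20 replication genes, all 20 fell on the second day (median -1.08) and 17 differed between the days. That number was 6 without E16.5 replicate 1, 4 without E16.5 replicate 3, 11 without E15.5 replicate 3 or without E17.5 replicate 3, and 2 without both arrays in doubt. Of the 44 cell cycle genes 43 fell on the second day (median -0.84) and 8 differed between the days, which was 1 without E16.5 replicate 1, 2 without E16.5 replicate 3 and 1 without both arrays. Mcm2 fell by 1.27 on the second day against -0.27 on the first, a difference of -1.0 (adjusted p = 0.0023), and Mki67 fell by 0.77 against -0.06, a difference not called (adjusted p = 0.18). Sox9 fell by 0.92 on the second day and differed from the first by -0.88 (adjusted p = 0.023). That difference was no longer called without E16.5 replicate 1, without both arrays or with A/J arrays only.

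Several genes rose mainly on the second day. Sftpd rose by 2.14 then, 2.33 more than on the first day (adjusted p = 5.9e-05), the smallest adjusted p of this test. Scgb1a1 rose by 3.85, 4.08 more than on the first day (adjusted p = 0.0023), and Aqp5 by 1.08, 1.54 more (adjusted p = 2.6e-04). Vegfa rose by 1.16, 1.0 more than on the first day (adjusted p = 4.3e-04). Of the 22 type I cell markers 6 were higher on the second day than on the first, and none lower. Msln, the surface protein mesothelin, had risen by 0.67 and rose by 2.73 on the second day, a difference of 2.06 (adjusted p = 9.7e-05), and its first-day call was lost without E16.5 replicate 1 (adjusted p = 0.063) or without both arrays (0.20). Deup1 went the other way: it rose by 1.53 and then by 0.33, a difference of -1.2 (adjusted p = 0.0017). Elf5 rose by 1.09 and then by 0.36 (difference -0.73, adjusted p = 0.037). The difference of Elf5 was no longer called without E16.5 replicate 1, without both arrays or with A/J arrays only. Clu, the chaperone clusterin, rose by 0.47 and then fell by 0.80 (difference -1.27, adjusted p = 0.0023). The first-day call of Clu was lost without E15.5 replicate 1 (adjusted p = 0.19), without E16.5 replicate 1 (0.17) or without both (0.57).

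From E17.5 to E20.5, arrays that share nothing with the first day, 18% of all probe sets rose and 17.7% fell. Of the 1022 probe sets that rose on the first day 499 (48.8%) rose again in this period and 166 (16.2%) fell. Of the 429 that fell on the first day 147 (34.3%) fell again and 39 (9.09%) rose. In all, 28 genes rose at least 1.5-fold on the first day and fell at least 1.5-fold from E17.5 to E20.5. The steepest was Crh, corticotropin-releasing hormone, which read 6.45, 6.88 and 7.03 at E15.5 and 8.16, 7.86 and 7.96 at E16.5 (1.21, adjusted p = 1.1e-04) and later fell by 3.54. Cdh16, a kidney and epithelial cadherin, rose by 0.83 (adjusted p = 0.061 without both arrays) and later fell by 2.47. The ciliated cell genes Cdc20b, Deup1, Mir449c, Lrrc23, Cfap52 and Ccno were among the 28, with later falls of 1.92, 1.71, 1.41, 0.76, 0.7 and 0.66. The later differences of Foxj1, Dynlrb2 and Cfap206 were 0.07, 0.06 and 0.14. Most ciliated cell genes did not fall in this period: of the 22 markers 10 rose and 2 fell (median 0.3). Of the 31 Cfap genes 11 rose and 4 fell. Rtn1, a reticulon, was the 1 gene that fell and later rose by as much (-0.59 and 0.85), and its first-day adjusted p was 0.097 without both arrays.

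In B6 lung the same day was measured on other arrays, and there 6.84% of probe sets rose and 7.52% fell. Among the 1022 A/J rises, 811 (79.4%) were also called higher in B6 and none lower, and among the 429 A/J falls 269 (62.7%) were also called lower and none higher. Seen from B6, 54.4% of its 1490 rises and 16.4% of its 1639 falls were called in A/J. The difference between the strains' changes was tested with limma for every probe set, and 0% passed: none had an adjusted p under 0.05, the smallest was 0.0671, and 1903 had an unadjusted p under 0.05. The smallest was that of Cxcl15, which rose by 0.93 in A/J and by 2.26 in B6 (difference -1.33, SE 0.23). The rise of Slc34a2 was 2.23 in A/J against 3.95 in B6 (difference -1.72, SE 0.35, adjusted p = 0.13), and that of Retnla 2.23 against 3.77 (difference -1.54, SE 0.34, adjusted p = 0.16). For Deup1 the order was turned, with 1.53 in A/J and 0.90 in B6 (difference 0.63, SE 0.17, adjusted p = 0.33). Hopx rose by 1.45 and 1.58 (difference -0.12, SE 0.16, adjusted p = 0.85). The count of strain differences rested on the arrays used: it was 15 without A/J E16.5 replicate 1, the array that lay toward B6, and 13 without both arrays in doubt.

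The position of each array along the change with age was read from 878 probe sets that moved at least 2-fold between B6 E15.5 and B6 E17.5, placing the B6 E15.5 mean at 0 and the B6 E17.5 mean at 1. The A/J E15.5 arrays lay at -0.08, -0.07 and 0.05 and the A/J E17.5 arrays at 0.98, 0.95 and 1.0. The A/J E16.5 arrays lay at 0.32, 0.27 and 0.16, and those of B6 E16.5 at 0.48, 0.59 and 0.45, so all 3 A/J litters were below all 3 B6 litters. On this scale, which was log2, rising and falling probe sets differed in position. At equal progress in linear signal, a log2 scale places rising probe sets farther along than falling ones. Whether falls lagged behind rises was therefore not tested. At the 506 rising probe sets the A/J E16.5 arrays were at 0.46, 0.33 and 0.28 and at the 372 falling ones at 0.13, 0.21 and 0.09. The same held in B6, with 0.54, 0.65 and 0.51 for rising and 0.38, 0.50 and 0.37 for falling probe sets. E16.5 replicate 1, which lay toward B6 at genes of strain, was the farthest along of the 3 A/J litters at rising probe sets and in the middle at falling ones. The B6 arrays placed here also set the scale, so their own positions at E15.5 and E17.5 are fixed near 0 and 1.

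**Figure D5:**
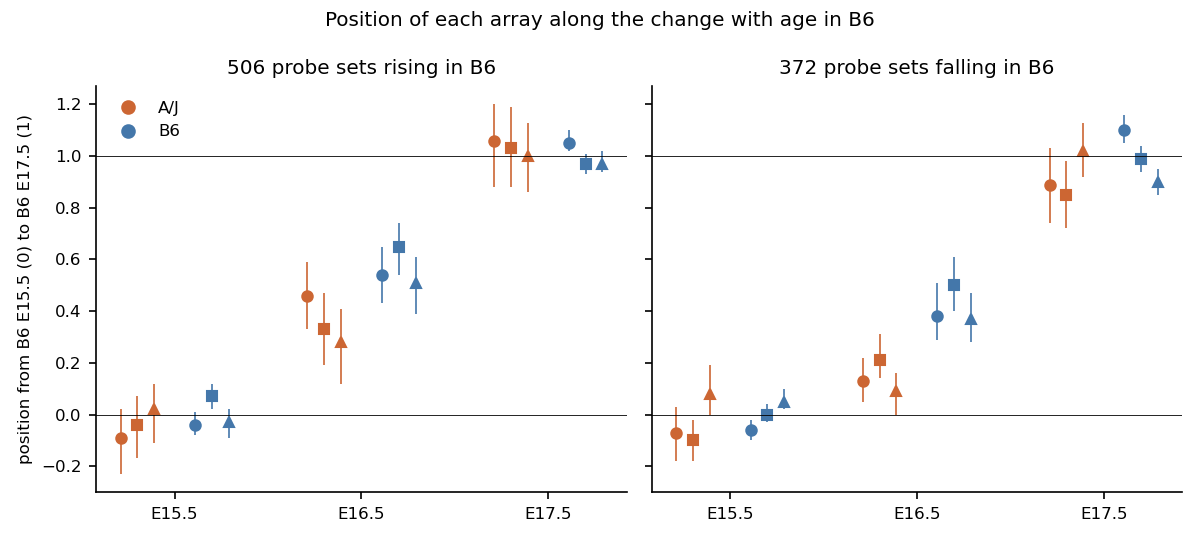
Median position of each array (symbols, with bars from the lower to the upper quartile over probe sets) on a scale from B6 E15.5 (0) to B6 E17.5 (1), for 506 probe sets rising and 372 falling in B6, with A/J in orange, B6 in blue and replicates 1, 2 and 3 as circles, squares and triangles. At E16.5 the A/J symbols lie below those of B6 in both panels, at 0.28 to 0.46 for rising and 0.09 to 0.21 for falling probe sets.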

How the data were processed

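The values are log2 signals of 37 arrays and 35556 probe sets that the authors made with RMA (Affymetrix Expression Console 1.1, per the submitters' processing notes) and deposited, and they were used without further change. Gene symbols came from the platform annotation: 21789 probe sets had 1 symbol, 1621 several and 12146 none, and a gene was represented by its brightest probe set. The fit in limma 3.58.1 (R 4.3.3) held a mean for each of the 12 strain and time groups over 36 replicates (1 repeated array of B6 E18.5 was averaged with its partner), which left 24 residual degrees of freedom, with eBayes and Benjamini-Hochberg adjustment over the 21789. Positions and counts were made in Python 3.11.15 with pandas 2.3.3. The members and lists (58, with 1108 of 1174 entries measured) were chosen with earlier results of these data known. Genes named are the 20 largest rises and 20 largest falls among called genes without overlap, the study's regulators, and list members, and the course after E16.5 adds genes chosen after their values were seen. On simulated data with known changes the fit of A/J E16.5 against A/J E15.5 called 98% of 200 probe sets changed 2-fold and 76.5% of those changed 1.5-fold. With the 1.5-fold rule added, 45% of those changed 1.5-fold passed. The simulation gave all arrays the same spread at a probe set, so it did not mimic the 2 arrays that stood apart. Same-numbered litters did not deviate together (correlations -0.0063, -0.265 and -0.248), so numbers were not used as pairs. Alternatives were other scalings, filters, sample sets, weights, left-out arrays and fold thresholds. RefSeq sequences are of GRCm38.p6, and the probes' build is not given in the sources used here. The number of arrays limits the precision.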

Additional observations from a re-analysis of the deposited data

Results flagged for a closer look

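Probe sets without exactly 1 gene symbol were not part of the comparisons. Of these 13767, 49 (0.356%) rose at least 1.5-fold from A/J E15.5 to E16.5 and 10 fell as much, against 1.53% rising among probe sets with 1 symbol when all 35556 were adjusted together. They drew attention because a change appeared in data that the report did not use.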

How the results depend on the processing

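No called gene named above reversed under any alternative, and 90 of 178 stayed past the threshold under all that were run on them. For A/J E16.5 against E15.5, the 1022 higher became 606 with only the arrays of the groups compared and 334 without both arrays in doubt, and ranged from 592 to 929 when 1 litter was left out. The 429 lower became 143 with only those arrays, 253 with A/J arrays only, 812 with array weights and 40 without both, and ranged from 100 to 429. The 339 higher at least 1.5-fold became 201 without both, 880 at a lower fold threshold (25% more) and 80 at a fold of 2, and the 44 lower became 29 after quantile normalization, 10 without dim probe sets, 26 with only those arrays, 13 without both, 323 at that lower threshold and 2 at a fold of 2, and ranged from 17 to 78. The 0 strain differences became 1 after quantile normalization, 8 without dim probe sets, 1 with only the arrays compared, 27 with array weights and 13 without both, and ranged from 0 to 15 with 1 litter left out, the 15 being without A/J E16.5 replicate 1. The 8 were Cbr2, Cd36, Cxcl15, Kdelr3, Lgals3, Mgp, Sftpa1 and Slc34a2. For the second day against the first, the 179 higher became 99 over all probe sets, 75 with only the arrays compared, 73 with A/J arrays only, 317 with weights and 78 without both (30 to 283 with 1 litter left out), and the 325 lower became 179, 140, 112, 490 and 34 in the same order, 511 without dim probe sets, and 39 to 457. The causes were not tested. The share of higher among called probe sets was 70.4%, against 80.9% with only the arrays compared, 85.7% without E15.5 replicate 1 and 89.3% without both. No scaling moved the median by more than 0.01. With the replicate number as a block, 990 rose and 393 fell, and 7 of the 178 named calls were lost.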

Other observations

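Other cell types and pathways moved in smaller numbers between A/J E15.5 and E16.5, where 4.69% of all probe sets rose and 1.97% fell. Of 20 laminin and basement membrane genes 7 rose, led by Lama3 (0.71) of the epithelial laminin, and 1 fell, Lama1 (-0.48), the chain of the early embryo, and without both arrays in doubt 3 rose and 1 fell. Of 24 genes of vascular signals and tone 6 rose, with Agtr1a, the angiotensin receptor, at 0.81 and Ace, which makes its ligand, at 0.71, and 2 rose without both arrays. Of 12 pericyte genes 2 rose with and without those arrays, Higd1b (0.92) and Postn (0.52). Of 16 collagen genes 3 rose, with Col6a3 at 0.66, and 1 without both arrays.

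Of 22 macrophage genes 4 rose, among them Ctss, cathepsin S (0.49), and Spi1, the myeloid transcription factor (0.45), and none was called without both arrays. Of 11 mesothelial genes 3 rose and 1 fell, Wt1 (-0.49). Of 27 genes of lipid synthesis 5 rose and 2 fell, Elovl6 (-0.57) and Acaca (-0.33). Of 29 genes of TGF-beta and BMP signalling 5 rose and 2 fell, Bmpr1b (-0.60) and Bmp7 (-0.47), and of 16 Notch genes 2 rose, Dll4 (0.51) and Hey1 (0.44). Of 16 splicing factors 3 fell and none rose, and of 12 fetal genes of the Lin28 and let-7 axis 3 fell. Of 14 neuroendocrine markers 1 rose, the prohormone convertase Pcsk1 (0.40), and none of 20 respiratory chain and 16 imprinted growth genes was called. Of 1027 olfactory receptor genes none rose and 6 fell, and of 300 microRNA loci 1 rose, Mir449c, with and without both arrays. Without both arrays 1 mesothelial, 2 lipid synthesis, 2 TGF-beta and BMP and 1 Notch gene rose, none of these lists had a fall, and none of the splicing factors, Lin28 and let-7 genes, neuroendocrine markers or olfactory receptors was called.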
